A study of Mus musculus with 79 samples.

Results

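The cytoplasmic ribosomal protein genes were followed through RNA profiles of mouse neuro-mesodermal progenitors, the cells at the caudal end of the embryo that feed both spinal cord and paraxial mesoderm. They were taken by symbol: every row of the 3 expression tables named Rps or Rpl plus a number and at most an accepted suffix, together with Rpsa and Rplp0 to Rplp2, without symbols that join genes and without rows named as pseudogenes. That gave 84 genes of the 23983 symbols in each table, 33 for the small (40S) and 51 for the large (60S) subunit. All 84 matched a RefSeq gene of build GRCm38.p6, spread over 19 chromosomes with 4 on X. The rule reads symbols alone.

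The series holds 79 samples, of which 9 bulk RNA libraries and 53 single cells were analysed. All embryos came from ES cells by tetraploid complementation, so the embryo proper descends from the cultured ES line, and cells were sorted from pooled, trypsin-dissociated caudal ends. The sort table has 3 wild-type (WT) C57BL/6N libraries of Theiler stage 12 (TS12), sorted as T+, T+ Sox2+ and Sox2+, each from the RNA of about 2500 cells, of which about 1000 went into the TotalScript library. The knockout table has 6 libraries of about 20000 cells each, made with ScriptSeq v2 after depletion of ribosomal RNA. They are T+ cells of WT embryos (C57BL/6N) and of T2J/2J embryos, called T KO (C57BL/6J), at TS12 and at TS13, with Tbx6+ cells of TS14 making up the last pair (both C57BL/6J). Titles and source names of that pair contradict each other on genotype, so its libraries are named by title. T KO cells were sorted as T+ like their WT counterparts although the T2J/2J genotype affects T itself. The single cells were T+ Sox2+ cells of WT C57BL/6N embryos at TS13, read as polyA RNA on a Fluidigm C1 chip, and no animal is named for them. Every bulk group is 1 library, so differences describe libraries and carry no replicate error.

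Ribosomal proteins assemble with ribosomal RNA in the nucleolus, and the cell needs them in matched amounts. Their mRNAs are among the most abundant of growing cells and typically begin with a 5′ terminal oligopyrimidine tract, through which mTOR signalling sets their translation. Mouse mutants tie several of them to the trunk and tail: loss of a copy of Rpl38 (Tail short) or of Rpl24 (Belly spot and tail) disturbs the axial skeleton. Free Rpl5 and Rpl11 bind Mdm2 and thereby stabilise p53 when ribosome assembly is disturbed.

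Bases around annotated starts were searched for short pyrimidine motifs. The search takes in bases before the start, so it does not show whether an mRNA begins with a pyrimidine tract. RefSeq promoters (GRCm38.p6) were found for 63 of the 84 genes. In the 60 bases from 30 before to 30 after an annotated start, CTTTC on the gene's own strand was present for 22 of the 63 genes (34.9%), against 9.18% of 27025 genes with a promoter and 7.41% of the 6522 other genes at 5 FPKM or more in the sort table. CTTCC on either strand was present for 50.8% of the ribosomal protein genes, against 28.5% of all genes and 36.4% of the other expressed genes. Each line gives 15 bases before the start and 15 from the start onwards, 5′ to 3′ on the gene's strand, with either motif or its reverse complement in capitals where it lies whole in the window. Rpl38, Rpl35 and Rps27 show the motif, Rps21 and Rps3a1 had the widest and nearly the smallest difference between stages in WT cells, and Rpl3l is a paralog that was all but silent.
Rpl38, chr11:114668565-114668594, plus strand: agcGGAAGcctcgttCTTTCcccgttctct
Rpl35, chr2:39005117-39005146, minus strand: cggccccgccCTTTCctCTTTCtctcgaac
Rps27, chr3:90213634-90213663, minus strand: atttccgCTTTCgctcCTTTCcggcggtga
Rps21, chr2:180257364-180257393, plus strand: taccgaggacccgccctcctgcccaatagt
Rps3a1, chr3:86142654-86142683, minus strand: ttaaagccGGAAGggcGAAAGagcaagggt
Rpl3l, chr17:24727811-24727840, plus strand: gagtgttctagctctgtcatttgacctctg
Rpl35 and Rps27 each hold 2 copies of CTTTC close to the start, while the 30 bases printed for Rps21 hold neither motif. In its 60-base window Rps21 does hold CTTCC on one of the strands. The absence of these letters says nothing about control of a gene.

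Depth does not limit most values. Estimated bulk depth ran from 20.8 to 43.5 M fragments, and a ribosomal protein gene of median level rested on 10352 to 34951 fragments, a counting error of 0.535% to 0.983% that covers counting only. The targeted gene followed the labels in the T KO libraries (4.61 against 69.8 FPKM at TS12, 3.32 against 76.4 at TS13), and in the Tbx6+ pair Tbx6 itself had 10.2 FPKM under the title KO against 31.5 under WT. The T+ WT TS12 library of the knockout table stood apart: 1038 of 1464 sensory receptor genes, which these cells should not express, were above 0 there, against 22 to 35 in each of the other 8 libraries. Summed red cell markers ranged from 0.81 to 12014 FPKM between libraries, highest in the T+ fraction. Paraxial markers were above 0 in every bulk library (5 of 5), but their sums ranged from 9.51 to 433 FPKM.

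**Figure D1:**
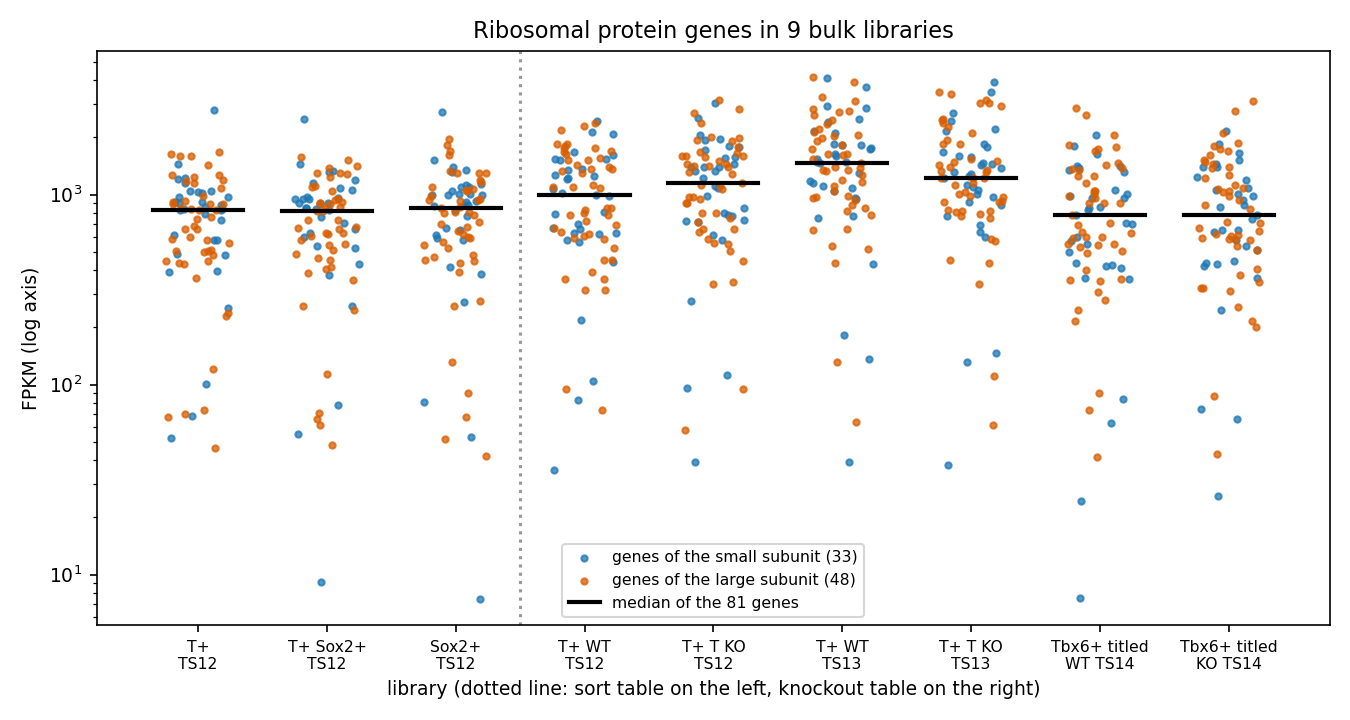
FPKM on a log axis of the 81 ribosomal protein genes at 5 FPKM or more (points; blue, small subunit; orange, large subunit) and their median (bar) in each of the 9 bulk libraries. Medians lie between 820 and 849 in the sort table and reach 1472 in T+ WT cells at TS13.

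Ribosomal protein genes took a large part of every profile. FPKM, which counts fragments per M mapped and divides by transcript length in kilobases, is a level per length. Comparison between genes by FPKM remains rough, since the order of genes differed between tables, as given below. Of the 84 genes, 81 were at 5 FPKM or more in each of the 9 bulk libraries and 3 reached that in none. Between 45 and 62 of the 100 highest gene rows of a library were ribosomal protein genes. Ranks and shares were taken over the 19772 symbols kept for comparisons, not over the whole profile. Mitochondrial genes, small RNAs, numbered models, joined symbols and ribosomal pseudogenes were left out of them. The share of ribosomal protein genes in this summed FPKM was 15.4% in T+, 16.1% in T+ Sox2+ and 16.9% in Sox2+ cells. It was 19.3% in T+ WT and 21.2% in T KO cells at TS12, 24.3% and 23.7% at TS13, and 15.5% and 16.5% in the Tbx6+ libraries titled WT and KO. The summed 40S level was 0.747 to 0.784 of the summed 60S level in the sort table and 0.609 to 0.677 in the knockout table.

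Levels differed widely between genes although the proteins are built into one particle. Rps2, at the mRNA entry site of the small subunit, had the highest mean of the sort table (2669 FPKM), followed by the stalk protein Rplp1 (1711), Rpl41 (1672), Rpl10 (1586) and Rpl4 (1504). In the knockout table the order was Rpl36a (3058), Rpl35 (2749), Rps12 (2714), Rps23 (2570) and Rpl41 (2287). Mean levels of single cells were highest for Rplp1 (3168), Rpl41 (3092), Rpl35 (2875), Rps19 (2792) and Rps12 (2755). Only Rpl41 was among the 5 highest of all 3 tables. Across the 81 genes the rank correlation of mean levels was 0.59 between the sort and knockout tables, 0.60 between the sort table and the cells and 0.56 between the knockout table and the cells, as a description of genes in tables that differ by kit.

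The tissue-restricted paralogs were at or near 0. Rpl3l, which replaces Rpl3 in striated muscle, was at most 0.0438 FPKM in bulk, while Rpl3 was at 894 to 1805 FPKM. Rpl10l, the testis copy of Rpl10, was listed at 0 in 8 bulk libraries and at 0.267 FPKM in T+ WT TS12 cells, the library with sensory receptor signal. Rpl39l, another testis copy, was listed at 0 in every library and every cell. Other paralogs were expressed. Rpl22l1 was at 238 to 274 FPKM in the sort table, above Rpl22 at 114 to 132, but at 41.8 to 132 FPKM against 316 to 535 in the knockout table. So the order of that pair differed between tables. Rps27l, a p53 target, was at 254 to 273 FPKM in the sort table and 74.9 to 183 in the knockout table. Rpl7l1 was at 42 to 90.0 FPKM in all bulk libraries and its partner Rpl7 at 1267 to 2752. Rps4l, which RefSeq lists as a transcribed pseudogene (chr6:148354656-148355596), was at 24.3 to 54.9 FPKM, against 1336 to 1540 for Rps4x.

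Some low genes have copies in the genome, and how the counting placed reads between a gene and its copies was not tested. RefSeq names 323 pseudogenes after 65 of the 84 genes. Rpl34 was at 66.1 to 67.4 FPKM in the sort table and 549 to 1114 in the knockout table, and the row of its pseudogene Rpl34-ps1 was at 485 to 584 and 478 to 1517. Rpl26, which has 6 named pseudogenes, was at 51.6 to 70.4 FPKM in the sort table and 73.8 to 453 in the knockout table. Rps15a, with 8, was at 62.9 to 136 in all bulk libraries, near the level of Rps15a-ps6 (38.6 to 90.9).

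The sort asked how cells differ by T and Sox2, and ribosomal protein genes differed little between the 3 fractions. T mRNA did not follow the sort labels: it was at 141 FPKM in T+, 341 in T+ Sox2+ and 192 in Sox2+ cells. Sox2 was at 2.82, 16.4 and 50.5 FPKM. The comparisons below are therefore of sort labels, not of high against low T mRNA. T+ Sox2+ cells were lower than Sox2+ cells for 65 of 81 genes, with a median log2 difference of -0.08; over all 8274 genes compared the median was -0.02 and 52.4% were lower. T+ cells were also lower than Sox2+ cells for 65 of 81 (median -0.09, where 49% of 8387 genes were lower). T+ Sox2+ against T+ cells gave 44 higher, where 46.9% of 8294 genes were, with a median of 0.02. These 3 comparisons share libraries. Sox2+ cells had the highest of the 3 values for 56 of the 81 genes, against 35.7% of all genes, so the top place, but not the order of the other 2, was shared by most of them. In bulk libraries, fewer cells of a type and less RNA per cell cannot be told apart. Globins took 3.66% of the summed FPKM in the T+ fraction and under 0.07% in the other 2, and without globins the shares of ribosomal protein genes were 16%, 16.1% and 16.9%.

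Single genes of the sorted fractions stood out by less than 1.4-fold apart from Rps27. Rps12 was at 1153 FPKM in T+, 1448 in T+ Sox2+ and 1527 in Sox2+ cells. Rps20, one of the genes whose mutation darkens mouse skin through p53, was at 917, 1148 and 1136 FPKM. Both were lowest in T+ cells. Rps15 was at 1016, 761 and 1007 FPKM, so it was lowest in T+ Sox2+ cells. Rpl38 was at 579, 629 and 645 FPKM and Rpl24 at 513, 547 and 541. The count of genes 2-fold higher or lower was 0 and 0 of 81 for T+ Sox2+ against Sox2+ cells, where 1.51% and 1.44% of all genes were. Rps27 was the only member 2-fold lower in T+ Sox2+ than in T+ cells (1.88% of all genes were). It was also the only one 2-fold above Sox2+ cells in the T+ fraction (3.65%). T+ cells had the lowest of the 3 values for 41 of the 81 genes (32.6% of all genes), and T+ Sox2+ cells lay between the others for 36 (39.2%).

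**Figure D2:**
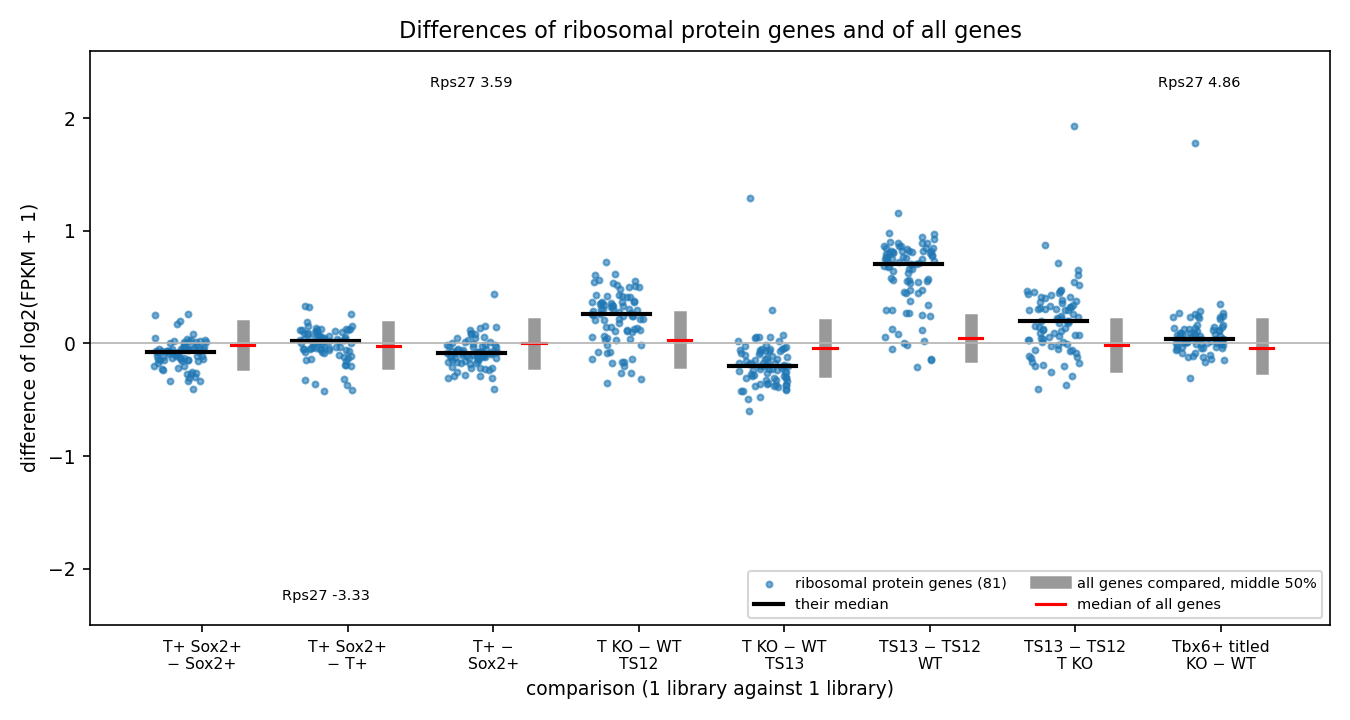
Differences of log2(FPKM + 1) in 8 comparisons of 1 library with another: blue points, the 81 ribosomal protein genes; black bars, their median; grey bars, the middle 50% of all genes compared, with the median in red. The points lie highest for TS13 minus TS12 in WT cells, and Rps27 lies off the scale in 3 comparisons, where its value is printed.

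The largest shift lay between the stages in WT T+ cells. Of 81 genes, 75 were higher at TS13 than at TS12, where 58% of 7801 genes were, and the median log2 difference was 0.71 against 0.05 for all genes. A step of 0.5 or more upward was seen for 57 of the 81, against 8.15% of all genes. The 724 other genes at 100 FPKM or more in 1 of these libraries had a median of 0.08, which is near the value for all genes. Small-subunit genes had a median of 0.75 and large-subunit genes of 0.69. Only Rps21 was 2-fold higher (0.961% of all genes were), and 0 were 2-fold lower (0.385%).

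In T KO cells the same stage step was smaller. There 61 of 81 genes were higher at TS13, where 47.4% of all genes were, with a median of 0.20 (all genes -0.02), and 7 were higher by 0.5 or more (5.49% of all genes). Rps27 alone was 2-fold higher (0.669% of all genes). Among members with a length stand-in of 600 bases or more, explained with the lengths, the T KO median turned to -0.010 and the WT median was 0.32. In the 4 T+ libraries, both TS13 values lay above both TS12 values for 57 of the 81 genes, against 18% of 8189 genes, and both lay below for 0, against 14%. Without the T+ WT TS12 library, both TS13 values lay above the T KO TS12 value for 61 of 81, against 31% of all genes. The WT value is there set against T KO cells, so genotype and strain label enter. The T KO pair alone already gives 61 of 81, so this count adds nothing to it. T+ WT TS12 was the lowest of the 4 libraries for 63 genes (31.8% of all genes) and T+ WT TS13 the highest for 65 (27.3%). Sensory receptor signal moved with the stage in WT cells but not in T KO cells, and red cell markers summed to 784 and 383 FPKM in WT and T KO at TS12 and to 2315 and 1805 at TS13. Their part in the stage differences was not tested.

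Single genes show the sizes involved, beginning with those known from mouse mutants. Rpl38 was at 727 FPKM in WT and 978 in T KO cells at TS12, and at 1267 and 1220 at TS13. Rpl24 was at 583, 754, 937 and 831 FPKM, libraries ordered alike. Rps19, the gene most often mutated in Diamond-Blackfan anaemia, was at 442, 576, 752 and 638. In each of these 3 genes both TS13 libraries were above both TS12 libraries, and WT TS12 was lowest. Rps20 was at 1625, 2068, 2924 and 2700 FPKM, Rps7 at 1206, 1401, 1764 and 1438 and Rpl27a at 805, 1070, 1398 and 1128. Rps25, needed by several viral entry sites for ribosomes, was at 617, 718, 1050 and 968, and Rpl10a at 594, 714, 878 and 750 FPKM. Rps21 had the widest WT step, from 1271 to 2844 FPKM, with 1934 and 2153 in T KO cells.

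Some members did not share the step. Rpl5 was at 1630 FPKM in WT and 1313 in T KO cells at TS12 and at 1472 and 1338 at TS13, so its WT TS12 value was the highest of the 4. Its partner in Mdm2 binding, Rpl11, was at 1368, 1496, 2144 and 1841. Rps6, the target of S6 kinases, was at 1220, 1087, 1293 and 1095, Rps3a1 at 2138, 1780, 2171 and 1772 and Rpl3, at the peptidyl transferase centre, at 1805, 1604, 1644 and 1405. For these 3 and for Rpl4, Rpl5, Rpl7, Rpl7a, Rpl7l1 and Rps4x, both T KO values lay below both WT values. The stalk proteins, which recruit elongation factors, differed among themselves. Rplp1 was at 1849, 2700, 3109 and 3055 FPKM, Rplp2 at 1675, 1662, 2481 and 3049, and Rplp0, the anchor of both, at 1519, 1582, 1647 and 1227.

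limma was fitted on all 8189 genes of the 4 T+ libraries with stage and genotype as terms, leaving 1 residual degree of freedom. The variance of a gene rests on that and on 9.33 prior degrees of freedom drawn from all genes. Its p-values therefore set an effect mostly against a variance pooled over genes, and they do not measure the spread between embryos. For stage, 1 of 81 genes passed an adjusted p of 0.05 as higher (0.195% of all genes did) and 0 as lower (0.0611%). At an unadjusted p under 0.05, 19 of the 81 were higher and 0 lower, against 468 and 273 of all genes. The called gene was Rps27, with a stage effect of 1.45 (log2, SE 0.245, adjusted p = 0.0493). Its step was 0.97 in WT and 1.94 in T KO cells, so the pairs shared the direction but not the size. Next came Rps15a at 0.58 (SE 0.162, adjusted p = 0.253) and Rps27l at 0.59 (SE 0.174, adjusted p = 0.279), which did not pass. The call of Rps27 was lost in 5 of 8 other settings, with adjusted p from 0.00919 to 0.948 over all of them. Rps27 also has a copy with a row of its own.

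**Figure D3:**
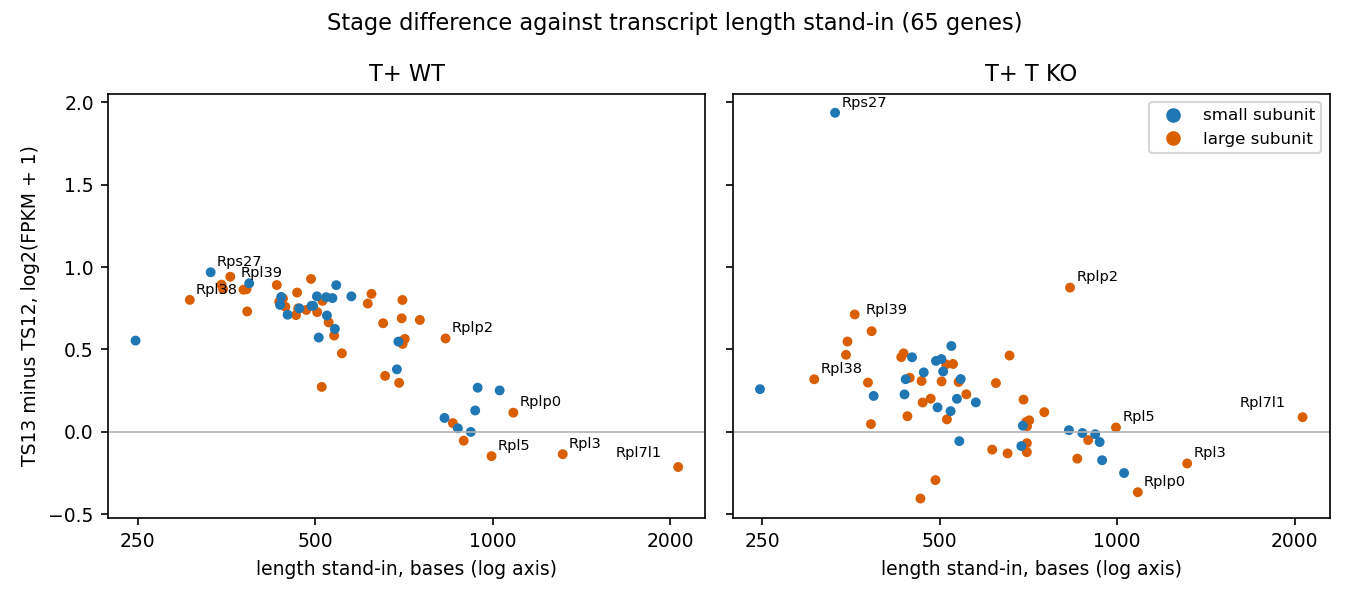
TS13 minus TS12 difference of log2(FPKM + 1) in WT (left) and T KO (right) T+ cells against a stand-in for transcript length on a log axis, for 65 ribosomal protein genes (blue, small subunit; orange, large subunit). Genes of 800 bases or more lie near 0 in WT cells (median 0.05), and shorter genes lie higher.

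Whether a gene shared the stage step went with its length. No transcript lengths were used for the mRNAs themselves, so the median length of the RefSeq pseudogenes named after a gene served as a stand-in, available for 65 of the 81 genes (80.2%; 248 to 2063 bases). The stand-in is rough: for Rplp2 it rests on 1 pseudogene of 832 bases. In WT cells the 13 genes of 800 bases or more had a median stage difference of 0.05, the 42 of 400 to 799 bases 0.74 and the 10 under 400 bases 0.87. In T KO cells these medians were -0.05, 0.20 and 0.39. Rank correlations of length and difference across the 65 genes, which share libraries and a scale per length, were -0.77 for the WT stage step, -0.62 for the T KO stage step, -0.57 for T KO against WT at TS12 and -0.37 at TS13. They were -0.16 for the Tbx6+ pair and 0.01 to 0.11 for the 3 sort comparisons. The 400 and 800 base limits were chosen after the values were seen, and what the relation with length reflects was not tested.

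T KO and WT cells differed in opposite directions at the 2 stages. At TS12, 66 of 81 genes were higher in T KO than in WT cells, where 54.3% of 7867 genes were, with a median of 0.26 (all genes 0.03), and 10 were higher by 0.5 or more (8.21% of all genes). At TS13, 72 of 81 were lower, where 55.7% of 7955 genes were, with a median of -0.20 (all genes -0.04), while Rps27 alone was 2-fold higher (1.11% of all genes). The 704 other genes at 100 FPKM or more had a median of -0.18 at TS13, close to that of the ribosomal protein genes, but -0.05 (688 genes) at TS12. Higher at TS12 and lower at TS13 held for 59 of 81 genes, against 25.6% of 7633 genes. The TS12 comparison shares the T+ WT TS12 library with the WT stage step.

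No ribosomal protein gene was called for genotype by limma: 0 higher and 0 lower, where 0.659% and 0.855% of all genes were called. At an unadjusted p under 0.05 there was 1 higher, Rps27 at 0.81 (SE 0.245, adjusted p = 0.166), and 0 lower, and limma gave 0 and 0 calls in the 8 other settings as well. Both T KO values lay above both WT values for 0 of 81 genes (20.9% of all genes) and below for 9 (22.2%). At TS12, Rpl27 (1413 FPKM in T KO, 854 in WT; log2 0.73) and Rps21 (1934 and 1271; 0.60) were among the widest differences on the high side. Rpl7l1 (57.6 and 73.6; -0.35), Rpl5 (-0.31) and Rps3a1 (-0.26) were at the low end. At TS13 the lowest were Rpl30 (340 and 516; -0.60), Rpl27 (1154 and 1626; -0.49) and Rps16 (696 and 966; -0.47). Rpl27 thus stood at opposite ends at the 2 stages. The strain label also differs between the genotypes, which cannot be told apart from genotype here. Cell type markers moved with genotype: paraxial markers summed to 144 FPKM in WT and 19.8 in T KO cells at TS12 and to 133 and 9.51 at TS13, and limma called 4 of 4 tested as lower. Neural markers summed to 19.7 and 31.7 FPKM at TS12 and to 24.3 and 85.4 at TS13. For these, limma called 1 of 3 tested as higher and 0 as lower. It called 2 of 4 lateral mesoderm markers as lower, and of 5 axial markers 1 as higher and 1 as lower. Their part in the differences of ribosomal protein genes was not tested.

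The Tbx6+ pair differed little. Of 81 genes, 59 were higher in the library titled KO, where 44.9% of 7722 genes were, with a median of 0.04 (all genes -0.04). Rpl38 was at 593 FPKM in the library titled WT and 586 in the one titled KO, Rpl24 at 508 and 510, Rps19 at 424 and 446 and Rplp0 at 1156 and 1080. Differences of 2-fold or more were seen for Rps27 (7.49 and 246 FPKM) and Rpl26 (73.8 and 256), 2 of 81 against 2.47% of all genes. Next highest was Rps14 (499 and 638; 0.35), and Rpl30 was lowest (249 and 200; -0.31). Red cell markers summed to 0.81 FPKM in the library titled WT, with 4 of 6 above 0, and to 258 in the one titled KO. Paraxial markers summed to 347 and 93.6 FPKM (5 of 5 above 0 in both), neural markers to 10.8 and 46.5 (5 of 5) and axial markers to 276 and 941 (6 of 6). The part of these markers in the result was not tested.

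**Figure D4:**
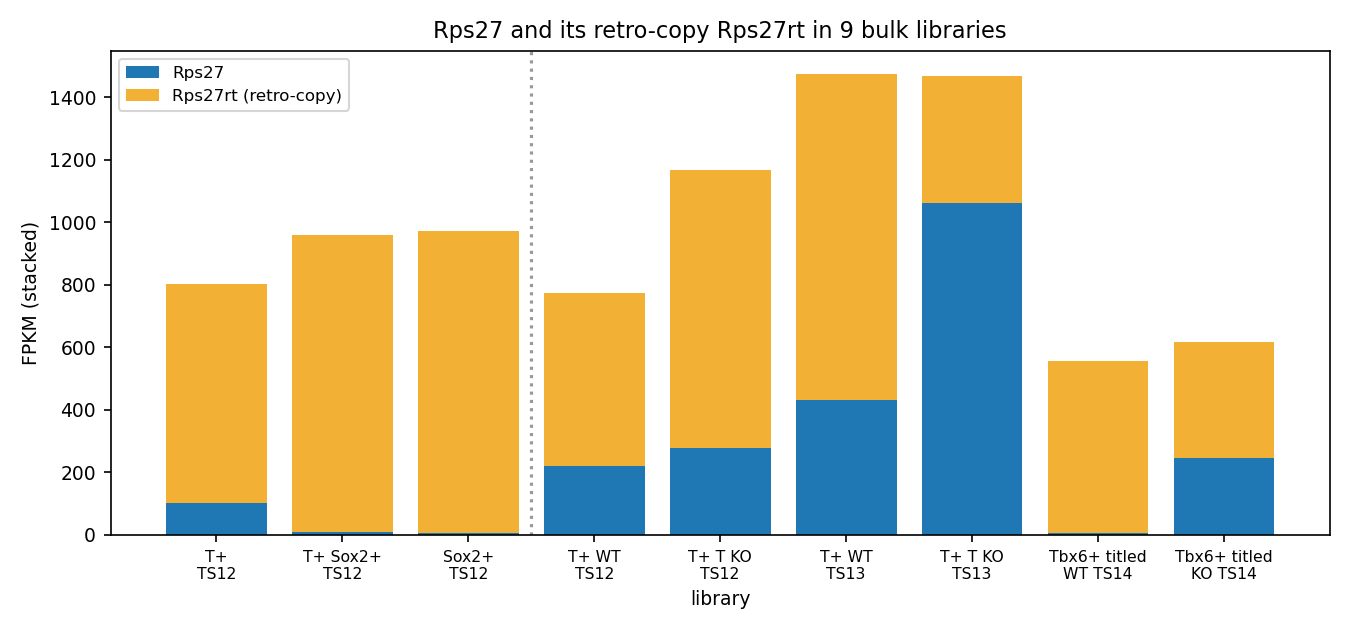
FPKM of Rps27 (blue) and of its retro-copy Rps27rt (yellow), stacked, in each of the 9 bulk libraries. Rps27 alone ranges from 7.46 to 1061 FPKM, while the stacked height ranges from 556 to 1474.

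Rps27, a zinc-finger protein of the small subunit, had the widest range of the 81 genes over the bulk libraries, and in several libraries its copy stood low where it was high. It was at 101 FPKM in T+, 9.14 in T+ Sox2+ and 7.46 in Sox2+ cells. In the knockout table it was at 220 and 277 FPKM in WT and T KO cells at TS12, 432 and 1061 at TS13 and 7.49 and 246 in the Tbx6+ libraries titled WT and KO. Its lowest values rest on about 70.8 to 85.2 estimated fragments, a counting error of 10.8% to 11.9%, so counting does not cover the range. Rps27rt, a retrogene copy on another chromosome (chr9:114982366-114982739, 374 bases, protein coding in RefSeq), was at 701, 949 and 964 FPKM in the sort table. In the knockout table it was at 554, 890, 1042 and 407 in the T+ libraries, in the same order as above, and 549 and 371 in the Tbx6+ pair. Where Rps27 was highest, in T KO cells at TS13, the copy was at its lowest among the T+ libraries.

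Summed over the 2 rows, most of these differences shrank. T+ against Sox2+ cells went from 3.59 for Rps27 alone to -0.28 for the sum, the Tbx6+ pair from 4.86 to 0.15, and T KO against WT at TS13 from 1.30 to -0.0058. The stage step was 0.97 for Rps27 and 0.93 for the sum in WT cells, but 1.94 and 0.33 in T KO cells. Not all comparisons went this way: T KO against WT at TS12 was 0.33 for Rps27, 0.68 for the copy and 0.59 for the sum. The summed stage step therefore lay near that of the other short genes in WT cells, and its mean over WT and T KO was 0.63 against 1.45 for Rps27 alone. How the authors' counting split reads between the rows is not given in the sources used here, so the value of Rps27 alone is uncertain.

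Genes that work with the ribosome were read from lists beside these. Fau, which encodes a ribosomal protein fused to a ubiquitin-like domain and falls outside the symbol rule, had a WT stage difference of 0.75 and a T KO stage difference of 0.28, near the medians of the ribosomal protein genes. The 17 measured translation factors and related genes whose mRNAs also carry a 5′ oligopyrimidine tract had a WT stage median of 0.06, with 9 above 0, and Hnrnpa1 was lowest (520 against 733 FPKM). Pabpc1, the poly(A)-binding protein, was at 221 FPKM in WT and 426 in T KO cells at TS12 and at 199 in T KO cells at TS13. Ribosome biogenesis genes had a WT stage median of -0.12, with 11 of 42 above 0; among them Nop10 was at 192 against 119 FPKM and Gar1 at 8.89 against 14.9. Hosts of small nucleolar RNAs had a median of 0.38 (6 of 7 above 0) and the 77 mitochondrial ribosomal protein genes 0.18 (48 above 0). Of all 7801 genes compared in that step, 58% were above 0, with a median of 0.05. In the T KO stage step the translation factors had a median of -0.08 (7 of 17 above 0) and biogenesis genes -0.07 (16 of 42). The hosts had 0.16 (5 of 7) and the mitochondrial genes -0.04 (36 of 77), where 47.4% of all genes were above 0. None of these 4 lists had a gene called by limma for stage or genotype, each time 0 of 17, 42, 7 and 77. Over all genes limma called 0.195% higher and 0.0611% lower for stage and 0.659% and 0.855% for genotype, so a count of 0 is near the background for lists of these sizes.

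In the Tbx6+ pair the biogenesis genes parted from the ribosomal proteins. Their median was -0.41, with 2 of 41 above 0, where the ribosomal protein genes had 59 of 81 and all genes 44.9% above 0, with a median of -0.04 over all genes. Nucleolin (Ncl), a major nucleolar protein, was at 143 FPKM in the library titled KO and 279 in the one titled WT, and Rrp9 at 26.3 and 45.9. The snoRNA hosts had a median of -0.48, with 0 of 7 above 0, and Snhg3 at 12.9 and 29.3 FPKM. Of 5 p53 response genes compared, 1 was above 0 and the median was -0.26. The exception was Pmaip1, the BH3-only gene Noxa, at 114 and 7.13 FPKM, while Ccng1 was at 33.5 and 58.6. In T KO against WT cells at TS12, 9 of 9 p53 response genes were above 0, where 54.3% of all genes were, with a median of 0.46. That comparison uses the T+ WT TS12 library with the sensory receptor signal. At TS13, 4 of 7 were above 0, where 44.3% of all genes were, with a median of 0.03. They ranged there from Cdkn1a at -1.17 to Pmaip1 at 1.21. In the T+ libraries, limma called Pmaip1 as higher in T KO cells by 0.93 (SE 0.172, adjusted p = 0.0270), 1 of 9 genes of that list, and 0 lower. It was at 12.3 and 19.9 FPKM in WT and T KO at TS12 and 10.5 and 25.6 at TS13.

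Nearly all ribosomal protein genes were read in every single T+ Sox2+ cell. Of the 84 genes, 80 (95.2%) were listed above 0 in all 53 cells, against 5.18% of the other genes. Those other genes were of any level, silent ones included, and the part of level was not tested. Among the 84 the exceptions were Rps4l in 51 cells, Rpl3l in 1, and Rpl10l and Rpl39l in 0. Estimated depth per cell was 0.42 to 2.43 M fragments, so a gene at 0 may have been below detection. Of those 80, Rpl30 reached 1 FPKM in 37 cells, Rpl26 in 41 and Rps27 in 52, and their lowest values (0.00203, 0.0118 and 0.372 FPKM) are too low to count as detection at this depth. The other 77 reached 1 FPKM in all 53 cells. The share of all 84 genes in the cell's summed FPKM was 12.2% in the lowest cell, 19.7% at the median and 28% in the highest. The 40S sum was 0.691 to 0.979 of the 60S sum, with a median of 0.817. T was above 0 in 53 of the 53 cells and Sox2 in 48.

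**Figure D5:**
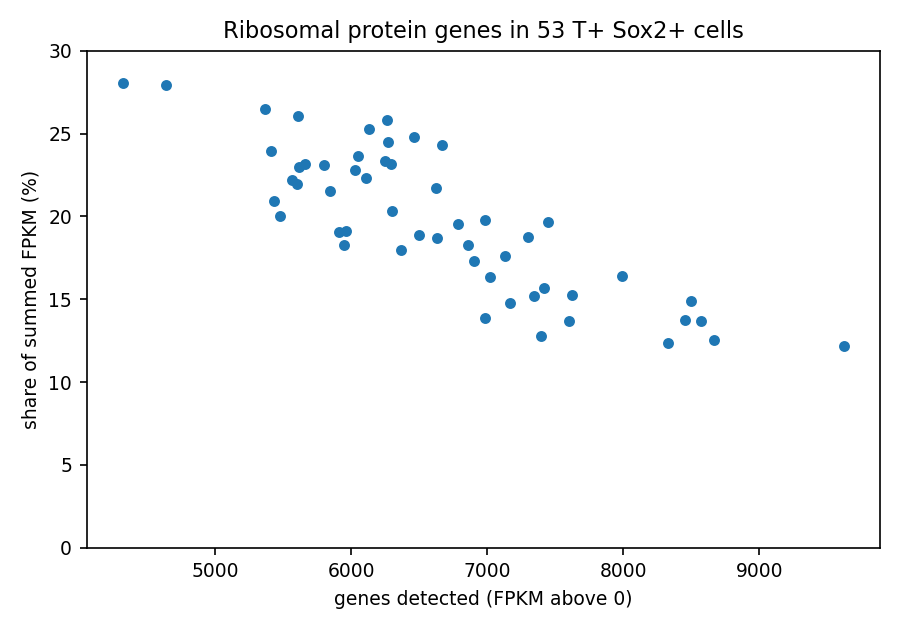
Share of the summed FPKM taken by ribosomal protein genes (vertical axis, percent) against the number of genes detected above 0 (horizontal axis) in 53 T+ Sox2+ cells, 1 point per cell. Cells with fewer genes detected have the higher shares, from 28% down to 12.2%.

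Cells with more genes detected gave a lower share to ribosomal proteins. Genes detected ran from 4321 to 9620, and the rank correlation with the share was -0.81 over the 53 cells, or -0.79 over the 47 cells left when those with the fewest genes were taken out. Both quantities come from the same library and depend on its depth and amplification. Of 12 genes read beside the share, Mycn, a Myc-family factor that drives ribosome genes, had the lowest rank correlation (-0.64; 0.40 with genes detected) and the elongation factor Eef1a1 the highest (0.48; -0.24). T was at 0.11, Sox2 at -0.10 and Tbx6 at 0.01. These are descriptions of cells for which no animal is named.

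Ribosomal protein genes varied less between cells than the other genes compared and varied together. Their coefficient of variation (SD over mean across cells) had a median of 0.418, against 0.531 for the 485 other genes present in every cell at a median of 100 FPKM or more. Rps25 (0.311) was among the steadiest, at 908, 1751 and 3442 FPKM in the lowest, median and highest cell. Pairs of small-subunit genes had a median rank correlation of 0.56, pairs of large-subunit genes 0.51 and pairs across subunits 0.53, against 0.01 for pairs of the 485 other genes. Pairs of a ribosomal protein gene with one of the 485 others had a median of 0.02. The part of depth and of the chip in these correlations was not tested. Ribosomal protein genes and the 485 others were not matched by level, and the part of level in these differences was not tested.

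Among the 80 genes listed above 0 in every cell, 5 had the widest spread. Rps27 had a coefficient of 1.21, Rpl26 of 1.16, Rpl30 of 1.06, Rpl7l1 of 0.885 and Rpl34 of 0.769. Rps27 was at 0.372, 337 and 3072 FPKM in the lowest, median and highest cell, and its rank correlation with Rps27rt was -0.66. The sum of the 2 rows had a coefficient of 0.464, near that of the other ribosomal protein genes, and Rpl34 with Rpl34-ps1 had 0.511. All 5 have a named pseudogene, as do 65 of the 84 genes. Of genes with many more, Rpl31 (24) had a coefficient of 0.380, below the median of 0.418. Rps12 (23) had 0.591, the next widest after these 5. The part of copies in the spread was not tested.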

How the data were processed

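RNA was measured in 9 bulk libraries and 53 single cells; 12 ATAC and 5 ChIP samples were not analysed here. The deposited values are FPKM, 1 per symbol. The authors mapped to build mm10 and used, per the submitters' processing notes, Bowtie 1.1.2, TopHat2 2.1.0, Cufflinks 2.2.1 (Cuffdiff or Cuffnorm), SAMtools, Picard 1.103 and bedtools 2.23.0, with scaling and annotation not given in the sources used here. Samples were grouped by their labels, and each table was read by itself. All columns were used.

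Differences are of log2(FPKM + 1), which understates low genes, for genes at 5 FPKM or more in 1 library compared. Small RNAs, numbered models, joined symbols, mitochondrial genes and ribosomal pseudogenes entered neither gene counts nor summed FPKM, in bulk libraries and in cells. The sorted genes (T, Sox2, Tbx6) did not enter gene counts of the comparisons. Counts of genes called 2-fold have no test. limma 3.58.1 (R 4.3.3, empirical Bayes trend, Benjamini-Hochberg over 8189 genes) gave the only test; on simulated data of 7880 genes for genotype it found 94 of 94 planted 2-fold and 97 of 97 planted 4-fold changes with 9 false calls, and for stage, over 7900 genes, 100 of 100 and 98 of 98 with 8. SEs of the ribosomal protein genes in the real fit ran from 0.149 to 0.327. The simulation set its noise near the low end of that range, with effects alike in both pairs. Its recovery therefore does not show what the real fit could find. Depth was estimated from low values that are whole multiples of 1 fragment within a relative tolerance of 0.0003. Tables were handled in Python 3.11.15 with pandas 2.3.3. The genes followed and the lists beside them were chosen with earlier results of these data known. Genes are named by role, as paralogs, as extremes of a comparison or of level, or as called. Pseudocounts, minimum levels, scalings and model terms were varied. Single values of a few genes are not reported here.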

Additional observations from a re-analysis of the deposited data

Results flagged for a closer look

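The T KO minus WT difference of ribosomal protein genes went opposite ways at the 2 stages: the median was 0.26 (log2) at TS12 and -0.20 at TS13. Each stage has 1 library per genotype, and the difference between the stages was not tested. Of 81 genes, 59 were higher at TS12 and lower at TS13, 2 the reverse, 13 lower at both and 7 higher at both. Among members with a length stand-in of 600 bases or more the TS12 median was 0.12, and with upper-quartile scaling the TS13 median was -0.092. The T+ WT TS12 library, which enters the TS12 value alone, is the one with 1038 sensory receptor genes above 0, and its part in the result was not tested.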

How the results depend on the processing

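No paired analysis was possible because every bulk group has 1 library, so no replicate number links libraries across groups. The signs of all 8 medians held under both other pseudocounts, both other minimums and both scalings, which moved them by at most 0.11. Upper-quartile scaling took T KO against WT at TS13 from -0.20 to -0.092. Settings added after seeing the data were wider. Only members with a length stand-in of 600 bases or more gave 0.12 for T KO against WT at TS12, 0.32 for the WT stage step and -0.010 for the T KO stage step, which changed its sign. Without Rps27 and Rpl26, the genes 2-fold apart numbered 0 for T+ Sox2+ against T+ (1 lower before), T+ against Sox2+, T KO against WT at TS13, the T KO stage step and the Tbx6+ pair. The limma stage call of Rps27 (1.45) was lost, leaving 0 genes, with stage alone in the model (adjusted p 0.948), without trend (0.118), with pseudocount 5 (0.0915), a minimum of 20 FPKM (0.0921) or median scaling (0.149). It passed with pseudocount 0.1 (0.0247), upper-quartile scaling (0.00919) or all 6 libraries (0.0225). Over all genes, limma's genotype calls (54 higher, 70 lower) ran from 4 and 17 with genotype alone to 123 and 97 with upper-quartile scaling, with 9 and 12 at the minimum of 20 FPKM, 25 and 40 with median scaling and 34 and 53 with pseudocount 5. Its stage calls (16 and 5) ran from 1 and 0 with stage alone to 35 and 14 with upper-quartile scaling, with 3 and 1, 6 and 4, and 8 and 4 in the other 3. Library shares and cell medians stayed within 1.5 times. An alternative without short members by transcript or protein length was not run. Leaving out T+ WT TS12 leaves limma no residual degree of freedom. The estimated depth of a cell limits what is read from genes at 0.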
